A study of Mus musculus with 2 samples.

Results

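The genes described here encode the enzymes that carry pyruvate into mitochondria, oxidise it to acetyl-CoA and turn the citric acid cycle, together with the regulators of pyruvate dehydrogenase and the enzymes that fill and drain the cycle. They were chosen by name as a list of 37 genes, and each symbol was matched to 1 identifier among the 55536 mouse genes of the deposited gene tables. The data are total RNA-seq of whole heart from 2 female B6CASTF1/J mice aged 36 days, the first-generation hybrid of the inbred strains C57BL/6J and CAST/EiJ. The input was 300 ng of RNA per library, and ERCC RNAs (a synthetic standard) were spiked in. Both hearts belong to a single untreated group, so the data give the level of each gene, its spread over 2 libraries and the difference between these libraries. The labels number the animals separately and call the libraries biological replicates, but both carry the same donor identifier. Tests between them therefore compare these 2 libraries only, and a difference may be technical in part.

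Pyruvate crosses the inner mitochondrial membrane through a carrier made of a pair of small proteins. The pyruvate dehydrogenase complex then converts it to acetyl-CoA, and dedicated kinases switch the complex off while phosphatases switch it on again. Citrate synthase joins acetyl-CoA to oxaloacetate, and the cycle oxidises the resulting citrate stepwise, which yields NADH and regenerates oxaloacetate. The heart draws most of its ATP from mitochondrial oxidation and burns fatty acids, lactate and glucose, so the kinases and phosphatases help to set how much carbohydrate carbon enters the cycle.

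Replicate 2 held 38332179 and replicate 1 held 39053339 expected counts, that is, reads per gene after the authors' program had divided the ambiguous ones. The 5 cardiomyocyte markers summed to 16992 TPM in replicate 2 and 16484 TPM in replicate 1, whereas 4 skeletal muscle markers summed to 1.46 and 1.85 TPM, with Myh4 at 0 in both, and 3 hepatocyte markers to 0.26 and 0.64 TPM. The libraries differed in markers of other cells. The 6 erythroid markers summed to 11882 TPM in replicate 2 and 36363 TPM in replicate 1, 5 brown adipocyte markers to 34.2 and 103 TPM (Ucp1 at 7.95 and 52.6), and 5 white adipocyte markers to 32.4 and 56.6 TPM. Endothelial, fibroblast, smooth muscle and macrophage markers summed to 135, 269.7, 79.4 and 19.5 TPM in replicate 2, against 151, 267, 93.8 and 20.5 TPM in replicate 1. In whole tissue, fewer cells of a type and less RNA per cell cannot be told apart. TPM, transcript abundance corrected for length and scaled to the same sum in each library, depends on everything else in the library, so ratios between the libraries are given on the TMM scale of edgeR, a scaling fitted to most genes.

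All 37 genes were detected, meaning at least 1 TPM in each library, as were 12024 mouse genes in all. Their median level was 205.8 TPM, against 8.72 TPM for the 11042 detected nuclear protein-coding genes. Of the 37, 35 lay above that median and 28 among the highest 10% (above 49.2 TPM). Their summed share of the TPM of all nuclear protein-coding genes was 2.25% in replicate 2 and 2.12% in replicate 1 (2.19% ± 0.0913, SD, n = 2). In the first quantification, used for levels unless stated otherwise, they spanned from Mdh1 at 919 ± 51.2 TPM to Pdk3 at 1.22 ± 0.0849 TPM (SD, n = 2), with 19 genes at 200 TPM or more and 7 under 25 TPM. In this order 22 of the 36 neighbouring pairs had overlapping ranges over the 2 hearts, while 14 did not overlap. Overlap does not use the pairing of both genes within each heart, so an overlapping pair may still keep its order in both. The plot of levels by role shows that the entry, dehydrogenase and cycle enzymes all lay above 50 TPM, and that the low genes were regulators, alanine transaminases, Me2 and Pcx.

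**Figure D1:**
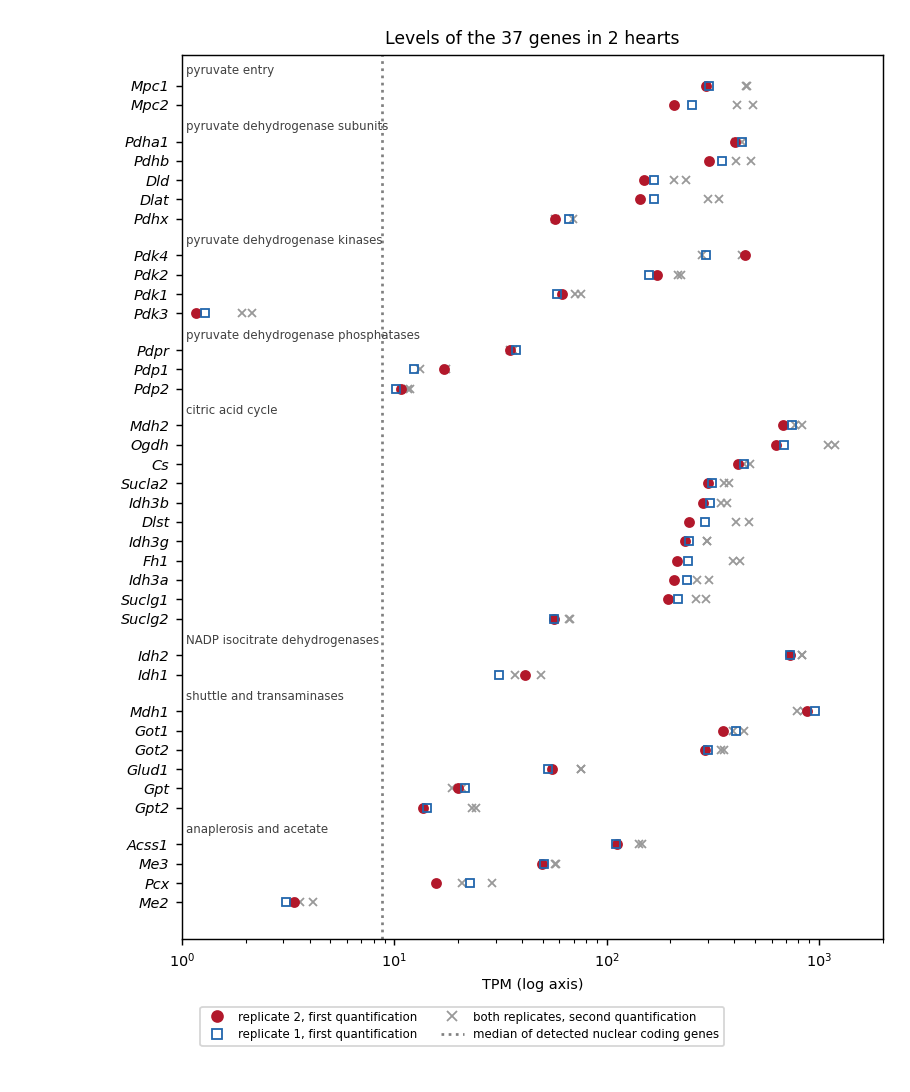
Levels of the 37 genes in TPM (log axis), grouped by role; filled circles are replicate 2 and open squares replicate 1 in the first quantification, crosses are both replicates in the second, and the dotted line is the median of detected nuclear protein-coding genes (8.72 TPM). Pdk3 and Me2 are the genes left of the line, and Mdh1 reaches 883 TPM in replicate 2 and 956 TPM in replicate 1.

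The mitochondrial pyruvate carrier was present at high levels of both partners. Mpc1 had 294 TPM in replicate 2 and 303 TPM in replicate 1. Mpc2 had 209 TPM in replicate 2 and 253 TPM in replicate 1. At the gene level Mpc1 supplied 56.5% ± 2.81 of the pair, and 50.6% ± 2.92 in the second quantification (SD, n = 2). There Mpc1 led in replicate 2 (52.7%) and Mpc2 in replicate 1 (51.5%). The processed transcript Mpc2-203 held 40.5% of Mpc2 TPM in the first quantification and 52.4% in the second. On transcripts annotated as protein-coding, Mpc1 averaged 289 TPM against 136 TPM for Mpc2 in the first. In the second it averaged 455 TPM against 212 TPM, and Mpc1 was the higher in each heart in both. Mpc2 was lower in replicate 2 on the TMM scale, with a log2 ratio of replicate 2 over replicate 1 of -0.16 (95% interval -0.22 to -0.10), whereas Mpc1 did not pass the test (0.01, -0.04 to 0.05). The pseudogene Mpc1-ps, a near-copy of the carrier gene, held 1168 counts in replicate 2 and 1157 in replicate 1 in the first quantification and 0 in the second, so how reads were divided between the copies is uncertain. Mpc1 itself held 7432 and 7940 counts in the first quantification and 8059 and 8549 in the second.

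The core of pyruvate dehydrogenase was led by the subunits of its first enzyme, the decarboxylase. Pdha1, on the X chromosome, had 401 TPM in replicate 2 and 433 TPM in replicate 1. Its partner Pdhb had 304 TPM in replicate 2 and 348 TPM in replicate 1. Dlat, the acetyl-transferring core subunit, had 144 TPM in replicate 2 and 167 TPM in replicate 1. Thus Pdha1 exceeded Dlat 2.78-fold in replicate 2 and 2.59-fold in replicate 1, and the order Pdha1, Pdhb, Dlat was the same in both hearts. In the second quantification Pdha1 exceeded Dlat by less, 1.36-fold in replicate 2 and 1.28-fold in replicate 1. There Pdha1 and Pdhb were also closer (0.996-fold in replicate 2 and 0.907-fold in replicate 1), so the order of the pair at the gene level depended on the quantification. On transcripts annotated as protein-coding, Pdha1 was above Pdhb in each heart in both quantifications. In the first it had 363 TPM in replicate 2 and 389 TPM in replicate 1, against 292 and 336 TPM for Pdhb. In the second it had 402 and 431 TPM, against 308 and 342 TPM. Dld, the lipoamide dehydrogenase shared with the 2-oxoglutarate and glycine cleavage complexes, had 150.1 TPM in replicate 2 and 167 TPM in replicate 1. Pdhx, which anchors Dld to the core, was the lowest subunit, with 57.2 TPM in replicate 2 and 66.5 TPM in replicate 1. In the first quantification Dlat held 71.6% ± 0.0138 of the summed Dlat and Pdhx TPM (SD, n = 2), a share that barely moved between hearts. In the second it held 83.5% ± 0.647, with 84.0% in replicate 2 and 83.1% in replicate 1. On coding transcripts the mean of Dlat was 103 TPM in the first and 108 TPM in the second, against 61.9 and 63.2 TPM for Pdhx. By expected counts Dlat held 80.2% in replicate 2 and 79.1% in replicate 1. All 5 subunits passed the library test as lower in replicate 2 on the TMM scale, by log2 ratios from -0.22 (Pdhx) to -0.05 (Pdha1), against 11.8% of all tested genes and 18.6% of those with 1000 counts or more over both libraries, whereas on the spike-in scale all 5 ratios were above 0, from 0.02 (Pdhx) to 0.20 (Pdha1).

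The kinases that inhibit the complex made up the group with the widest span and the largest difference between hearts. Pdk4, at chromosome 6, 5483351 to 5496309 of mm10, is the kinase induced in many tissues by fasting and fatty acid use. It had 450.1 TPM in replicate 2 and 295 TPM in replicate 1. Pdk2, a broadly expressed kinase, had 173 TPM in replicate 2 and 158 TPM in replicate 1. Pdk1, a target of hypoxia signalling, had 61.4 TPM in replicate 2 and 58.2 TPM in replicate 1, and Pdk3 had 1.16 and 1.28 TPM. The order Pdk4, Pdk2, Pdk1, Pdk3 was the same in both hearts. Pdk4 held 65.6% of kinase TPM in replicate 2 and 57.5% in replicate 1 (61.6% ± 5.72), Pdk2 28.1% ± 3.97, Pdk1 10.2% ± 1.69 and Pdk3 0.209% ± 0.0568 (SD, n = 2). Pdk4 was 1.71-fold higher in replicate 2 on the TMM scale, a log2 ratio of 0.77 (0.75 to 0.80), from 34533 counts in replicate 2 and 21737 in replicate 1. Its adjusted p was 0 at the precision of the exact binomial test, which treats reads as independent and knows no spread between animals. The edgeR exact test with a common dispersion gave Pdk4 an unadjusted p = 0.000918 and an adjusted p = 0.0743. That dispersion was estimated over all tested genes from these same 2 libraries treated as 1 group. The difference under test thus enters the spread it is set against, so the edgeR test gives no separate measure of spread between animals. Pdk2 (0.18, 0.14 to 0.22) and Pdk1 (0.11, 0.06 to 0.16) were also higher in replicate 2 by the exact binomial test, and Pdk3, with 71 and 81 counts, did not pass. Thus 3 of the 4 kinases were higher on the TMM scale, against 10% of all tested genes and 14.6% of those with 1000 counts or more. On the spike-in scale they were higher too, as were 55.2% of all tested genes, and Pdk1 no longer passed on total counts or on totals without mitochondrial, haemoglobin and 7SL/7SK genes. The contribution of cell composition to the Pdk4 difference was not tested; brown adipocyte, white adipocyte and erythroid marker sums were lower in replicate 2.

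The phosphatases that reactivate the complex summed to 63.1 TPM in replicate 2 and 60.0 TPM in replicate 1, against 686 and 513 TPM for the kinases, although Pdk3 lay below all 3 of them. Pdp1, the calcium-stimulated catalytic subunit of muscle, had 17.2 TPM in replicate 2 and 12.4 TPM in replicate 1. Pdp2, the other catalytic subunit, had 10.7 TPM in replicate 2 and 10.2 TPM in replicate 1. Pdpr, the regulatory subunit, had 35.1 TPM in replicate 2 and 37.3 TPM in replicate 1. Pdk4 exceeded Pdp1 26.1-fold in replicate 2 and 23.7-fold in replicate 1, since both genes were higher in replicate 2. Pdp1 had a log2 ratio of 0.51 (0.39 to 0.62) with an adjusted p = 7.61e-16 by the exact binomial test. The edgeR exact test gave Pdp1 an unadjusted p = 0.0348 and an adjusted p = 0.994. Pdp2 passed narrowly (0.13, 0.03 to 0.22; adjusted p = 0.0399, exact binomial test) and did not pass in the second quantification, without a count filter, on total counts or on totals without mitochondrial, haemoglobin and 7SL/7SK genes. Pdpr did not pass (0.00, -0.05 to 0.06).

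**Figure D2:**
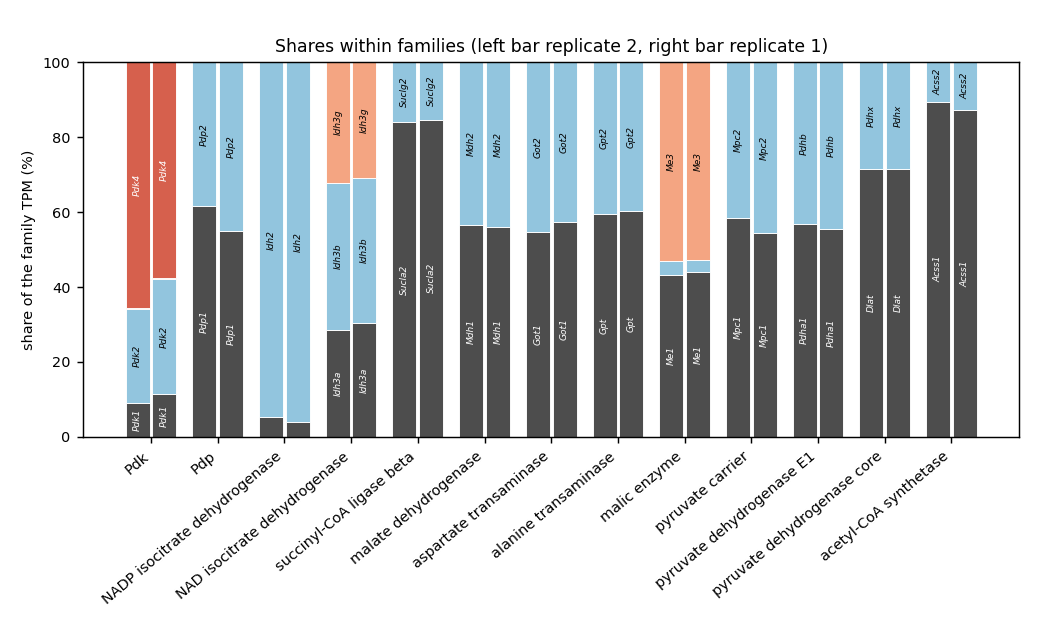
Share of each gene in the summed TPM of its family (percent, first quantification), with the left bar of each pair for replicate 2 and the right bar for replicate 1. Pdk4 takes 65.6% of kinase TPM in replicate 2 and 57.5% in replicate 1, while the Idh2 and Sucla2 shares differ by under 2 percentage points.

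The plot of shares within families shows that the balance of isozymes was alike in both hearts, with the kinases, the phosphatases and the carrier moving most. The gene with the largest share was the same in each single heart as in the mean in 14 of 14 families. By the mean of the second quantification it was the same in 12 of 14 families, the exceptions being Pdha1 with Pdhb and Gpt with Gpt2. There the carrier pair also differed between hearts, with Mpc2 ahead in replicate 1. These orders are at the gene level. On coding transcripts Pdha1, Gpt and Mpc1 were the higher of their pairs in each heart in both quantifications. By expected counts, which do not correct for transcript length, it was the same in 9 of 14.

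The cycle itself was carried by 11 listed genes, of which 10 averaged above 200 TPM, Suclg2 being the exception. Mdh2, the matrix malate dehydrogenase that regenerates oxaloacetate, led in the first quantification with 681 TPM in replicate 2 and 746 TPM in replicate 1, against 774 and 837 TPM in the second. Ogdh, the decarboxylase of the 2-oxoglutarate dehydrogenase complex, had 627 TPM in replicate 2 and 687 TPM in replicate 1, and led in the second quantification with 1099 and 1187 TPM. Its transferase partner Dlst had 245 TPM in replicate 2 and 293 TPM in replicate 1. Ogdh exceeded Dlst 2.56-fold in replicate 2 and 2.35-fold in replicate 1 and, in the second quantification, 2.71-fold and 2.54-fold. Cs, the citrate synthase that opens the cycle, had 415 TPM in replicate 2 and 444 TPM in replicate 1. Cs and Pdha1 were neighbours in the order of levels in the first quantification, and their ranges overlapped. Cs was nonetheless the higher in each heart, as Pdha1 had 401 TPM in replicate 2 and 433 TPM in replicate 1.

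The NAD-dependent isocitrate dehydrogenase, a rate-setting step of the cycle built from catalytic and regulatory subunits, had all its subunits within 1.5-fold of each other at the gene level. Idh3b had 286 TPM in replicate 2 and 306 TPM in replicate 1, Idh3g 234 and 243 TPM, and the catalytic Idh3a 208 and 239 TPM. Their shares were 39.1% ± 0.349, 31.5% ± 0.857 and 29.4% ± 1.21 (SD, n = 2), in the same order in each heart. In the second quantification Idh3a (303 TPM) lay just above Idh3g (299 TPM) in replicate 1, and on coding transcripts of the first Idh3a had 119.5 ± 16.7 TPM, against 292 ± 14.2 TPM for Idh3b (SD, n = 2). Idh3b overlaps Nop56 on the opposite strand, which held 500.1 counts in replicate 2 and 468 in replicate 1, against 13162 and 14525 for Idh3b.

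Succinyl-CoA ligase, the cycle's substrate-level phosphorylation step, was dominated by its ATP-forming beta subunit. Sucla2 had 299 TPM in replicate 2 and 315 TPM in replicate 1. Suclg2, the GTP-forming alternative, had 56.75 TPM in replicate 2 and 56.76 TPM in replicate 1. Sucla2 held 84.4% ± 0.475 of the pair (SD, n = 2) and exceeded Suclg2 5.27-fold in replicate 2 and 5.55-fold in replicate 1. The shared alpha subunit Suclg1 lay between Sucla2 and Suclg2, with 195 TPM in replicate 2 and 217 TPM in replicate 1. Fh1, the fumarate hydratase, had 215 TPM in replicate 2 and 243 TPM in replicate 1. Of the 11 cycle genes, 7 were lower in replicate 2 on the TMM scale (Cs, Idh3a, Ogdh, Dlst, Suclg1, Fh1 and Mdh2), by log2 ratios from -0.16 to -0.03, against the same 11.8% and 18.6%. On the spike-in scale these 7 were higher, as were 55.2% of all tested genes. None of the other 4 passed on the TMM scale in the first quantification. In the second, Idh3b (-0.052) and Sucla2 (-0.045) passed as lower in replicate 2 too.

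Ogdh has several annotated starts and lies at chromosome 11, 6291633 to 6356642 of mm10, plus strand. Promoter windows of 300 bases, from 250 before to 50 after each RefSeq start (GRCm38.p6), were available for 33 of the 37 genes, 43 windows in all. The letters AAGGTCA, the core of the site bound by estrogen-related receptors, were found on either strand in 2 of the 43 windows (4.65%), in Ogdh and Got1, against 4.72% of 32851 windows of all genes. The letters GCGCATGCG, most of the NRF1 site, were found in 2 windows (4.65% against 1.75%), which overlap and share 1 site in Ogdh. The ETS letters CCGGAAG were found in 5 windows (11.6% against 8.86%), those of Dlst, Glud1, Idh3b, Idh3g and Mpc1. A match of letters is a description of the sequence only. Shares of these letters in the windows of detected genes alone were not computed. The median window of these genes had 61.7% G and C and 21 CpG, against 61.3% and 21 for the windows of detected protein-coding genes and 52.7% and 7 for all. Of the 3 Ogdh windows that hold these letters, 2 are printed (the other overlaps the second of them), as an example of a gene with several annotated starts. They run 5′ to 3′ from 250 bases before to 30 after the start, with the matching letters in capitals. The leading transcript Ogdh-201 begins elsewhere, at 6291633, and held 63.4% of Ogdh TPM in the first quantification and 53.8% in the second. The windows of the starts near it (6291597, 6291606 and 6291659) hold none of these letters. Ogdh-206, which begins at 6292172, held 1.49% and 22.4%. In the window at chr11:6291920-6292199 (plus strand), TGACCTT, the reverse complement of AAGGTCA, begins 5 bases before the start, and in the window at chr11:6292308-6292587 (plus strand), GCGCATGCG begins 15 bases before it.
Ogdh, start at 6292170: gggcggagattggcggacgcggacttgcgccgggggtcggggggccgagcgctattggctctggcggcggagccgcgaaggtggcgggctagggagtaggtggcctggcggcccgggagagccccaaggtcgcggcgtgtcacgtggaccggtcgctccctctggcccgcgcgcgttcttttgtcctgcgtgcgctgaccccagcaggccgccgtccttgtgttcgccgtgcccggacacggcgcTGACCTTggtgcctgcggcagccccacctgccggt
Ogdh, start at 6292558: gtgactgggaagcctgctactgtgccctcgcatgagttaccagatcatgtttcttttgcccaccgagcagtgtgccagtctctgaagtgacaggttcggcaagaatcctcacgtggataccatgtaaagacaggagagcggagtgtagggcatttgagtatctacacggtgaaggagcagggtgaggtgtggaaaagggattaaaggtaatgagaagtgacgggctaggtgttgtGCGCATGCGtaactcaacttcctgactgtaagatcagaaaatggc

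The NADP-dependent isocitrate dehydrogenases run the same conversion outside the main cycle flux and yield NADPH. Idh2, the mitochondrial form, had 731 TPM in replicate 2 and 732 TPM in replicate 1. Idh1, the cytosolic and peroxisomal form, had 41.2 TPM in replicate 2 and 31.0 TPM in replicate 1. Idh2 held 95.3% ± 0.902 of the pair (SD, n = 2) and exceeded Idh1 17.7-fold in replicate 2 and 23.6-fold in replicate 1. Idh1 was 1.47-fold higher in replicate 2 on the TMM scale (log2 ratio 0.56, 0.47 to 0.65), with an adjusted p = 5.18e-33 by the exact binomial test. The edgeR exact test gave Idh1 an unadjusted p = 0.0181 and an adjusted p = 0.665. Idh2 had a ratio of 0.05 (0.03 to 0.07) on the TMM scale and of -0.03 on total counts.

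Idh1 lies on the minus strand of chromosome 1, 65158616 to 65186500 of mm10, and RefSeq lists an upstream and a downstream start for it. The windows of both are printed because the deposited quantifications placed the transcripts at different ones. Capitals mark the first 30 bases from the start on. The windows lie at chr1:65186450-65186729 (upstream) and chr1:65179113-65179392 (downstream), both GRCm38.p6, minus strand, and have 62.0% and 63.7% G and C over 300 bases, with 23 CpG each.
Idh1, upstream start: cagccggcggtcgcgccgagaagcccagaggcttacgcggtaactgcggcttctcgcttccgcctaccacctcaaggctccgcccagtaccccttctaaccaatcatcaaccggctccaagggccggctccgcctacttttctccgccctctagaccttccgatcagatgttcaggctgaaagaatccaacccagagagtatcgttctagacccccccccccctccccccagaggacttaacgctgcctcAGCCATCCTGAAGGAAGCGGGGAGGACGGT
Idh1, downstream start: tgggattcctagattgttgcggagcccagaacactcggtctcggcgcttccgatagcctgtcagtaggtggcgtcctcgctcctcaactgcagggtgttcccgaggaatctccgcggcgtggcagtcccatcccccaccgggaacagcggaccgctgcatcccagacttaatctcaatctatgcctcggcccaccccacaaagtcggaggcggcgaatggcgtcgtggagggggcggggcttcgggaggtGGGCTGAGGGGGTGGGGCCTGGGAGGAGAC
Transcripts beginning within 500 bases of the upstream start held 5.36% of Idh1 TPM in replicate 2 and 4.32% in replicate 1 in the first quantification, against 98.3% in replicate 2 and 99.9% in replicate 1 in the second. Transcripts at the downstream start held 82.2% in replicate 2 and 75.8% in replicate 1 in the first quantification, and 1.74% and 0.0512% in the second. The difference between the quantifications was thus far larger than the spread between hearts, while the level of the whole gene was close in both (49.2 TPM in replicate 2 and 37.02 TPM in replicate 1 in the second). Which start was used in these hearts cannot be read from these tables.

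Malate and aspartate carry reducing equivalents between cytosol and matrix, and the enzymes of this shuttle were among the most abundant genes of the list. Mdh1, the cytosolic malate dehydrogenase, was the highest of the 37 in the first quantification, with 883 TPM in replicate 2 and 956 TPM in replicate 1. In the second it had 792 TPM in replicate 2 and 853 TPM in replicate 1, below Ogdh. Mdh1 and Mdh2 stood 1.30-fold apart in replicate 2 and 1.28-fold apart in replicate 1, and 1.02-fold apart in both hearts in the second quantification. Got1, the cytosolic aspartate transaminase, had 353 TPM in replicate 2 and 405 TPM in replicate 1. Got2, its mitochondrial partner, had 292 TPM in replicate 2 and 300.4 TPM in replicate 1. At the gene level both shuttle pairs had the cytosolic gene higher in each heart. On first-quantification coding transcripts, Mdh1 had 876 TPM in replicate 2 and 948 in replicate 1, against 395 and 443 for Mdh2. The second placed them closer, with 789 and 849 coding TPM for Mdh1 against 639 and 719 for Mdh2. Got1 and Got2 had 290.5 and 291.1 coding TPM in replicate 2, and 337 and 299 in replicate 1, in the first quantification. The order of that pair was therefore not firm. The pseudogene Got2-ps1 took 2686 counts in replicate 2 and 2925 in replicate 1 in the first quantification and 1483 and 1624 in the second, against 21577 and 22916 for Got2 itself. Mdh1 (-0.07) and Got1 (-0.16) were lower in replicate 2 on the TMM scale and higher on the spike-in scale, and Got2 did not pass (0.02).

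The enzymes that interconvert glutamate and alanine with cycle intermediates were much lower. Glud1, the glutamate dehydrogenase, had 55.6 TPM in replicate 2 and 53.2 TPM in replicate 1. Gpt, the cytosolic alanine transaminase, had 20.0 TPM in replicate 2 and 21.6 TPM in replicate 1, and the mitochondrial Gpt2 had 13.6 and 14.2 TPM. Got2 therefore stood well above Glud1 in both hearts. None of Glud1, Gpt and Gpt2 passed the library test on the TMM scale in the first quantification. Gpt passed as lower in replicate 2 in the second quantification (-0.20) and on total counts (-0.17). Gpt held 59.9% ± 0.660 of the transaminase pair in the first quantification and 45.4% ± 2.93 in the second (SD, n = 2), so the order at the gene level depended on the quantification. On coding transcripts Gpt was above Gpt2 in each heart in both quantifications. In the first it had 19.5 TPM in replicate 2 and 20.2 TPM in replicate 1, against 12.7 and 12.3 TPM for Gpt2. In the second it had 18.0 and 19.4 TPM, against 12.7 and 12.6 TPM.

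Enzymes that fill the cycle by other routes ranged from Acss1 above 100 TPM to Me2, the second lowest gene of the list. Acss1, the mitochondrial acetyl-CoA synthetase that activates acetate, had 112 TPM in replicate 2 and 111 TPM in replicate 1, and held 88.4% ± 1.56 of TPM together with its cytosolic counterpart Acss2 (SD, n = 2). Me3, the mitochondrial NADP malic enzyme, had 49.7 TPM in replicate 2 and 50.6 TPM in replicate 1. Me2, the mitochondrial NAD malic enzyme, had 3.38 TPM in replicate 2 and 3.08 TPM in replicate 1. Me3 made up 53.0% ± 0.252 of malic enzyme TPM, the cytosolic Me1 43.6% ± 0.535 and Me2 3.41% ± 0.282 (SD, n = 2), although little of Me3 came from coding transcripts, as described further on. None of Acss1, Me2 and Me3 passed the library test.

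Pcx, the pyruvate carboxylase that makes oxaloacetate from pyruvate, had 15.8 TPM in replicate 2 and 22.8 TPM in replicate 1. Pdha1 exceeded Pcx 25.4-fold in replicate 2 and 19.0-fold in replicate 1. Pcx had the lowest ratio of the 37 genes, -0.40 (-0.49 to -0.30), with an adjusted p = 5.05e-14 by the exact binomial test and an unadjusted p = 0.0952 by the edgeR exact test. The enzyme is abundant in liver and fat. Hepatocyte markers were near 0 in both hearts (0.26 TPM in replicate 2 and 0.64 TPM in replicate 1, summed over 3 genes). The adipocyte marker sums given above were lower in replicate 2, as was Pcx, and their part in this result was not tested.

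Pcx lies on the plus strand of chromosome 19, 4510472 to 4621752 of mm10, with a RefSeq upstream and downstream start. Their windows, at chr19:4510222-4510501 and chr19:4594069-4594348 of GRCm38.p6 (plus strand), are printed because the difference between hearts was uneven over them. Capitals mark the first 30 bases from the start on.
Pcx, upstream start: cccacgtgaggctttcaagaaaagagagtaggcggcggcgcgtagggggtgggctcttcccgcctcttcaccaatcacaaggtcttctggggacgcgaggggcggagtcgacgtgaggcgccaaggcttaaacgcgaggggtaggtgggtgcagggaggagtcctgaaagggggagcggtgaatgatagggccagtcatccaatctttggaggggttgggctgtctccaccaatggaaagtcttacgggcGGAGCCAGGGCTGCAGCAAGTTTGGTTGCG
Pcx, downstream start: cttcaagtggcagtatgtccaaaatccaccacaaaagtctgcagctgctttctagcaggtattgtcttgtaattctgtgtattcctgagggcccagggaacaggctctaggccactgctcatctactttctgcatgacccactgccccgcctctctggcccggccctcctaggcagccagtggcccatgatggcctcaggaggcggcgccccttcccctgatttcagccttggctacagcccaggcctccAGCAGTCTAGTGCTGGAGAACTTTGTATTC
The upstream window had 61.7% G and C with 20 CpG and the downstream window 57.0% with 5 CpG, over 300 bases. In the first quantification, transcripts at the upstream start summed to 8.50 TPM in replicate 2 and 8.31 TPM in replicate 1. Those at the downstream start summed to 7.3 TPM in replicate 2 and 14.3 TPM in replicate 1. The deficit of Pcx in replicate 2 thus lay in downstream-start transcripts in that quantification, which included Pcx-207, a transcript of only 414 bases. In the second quantification the downstream start held 1.09% of Pcx TPM in replicate 2 and 1.72% in replicate 1, and the upstream start 57.1% and 56.4%, or 11.97 TPM in replicate 2 and 16.2 TPM in replicate 1. The split of Pcx by start therefore depended on the quantification, while the lower level of the whole gene in replicate 2 was found in both (a log2 ratio of -0.41 in the second).

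**Figure D3:**
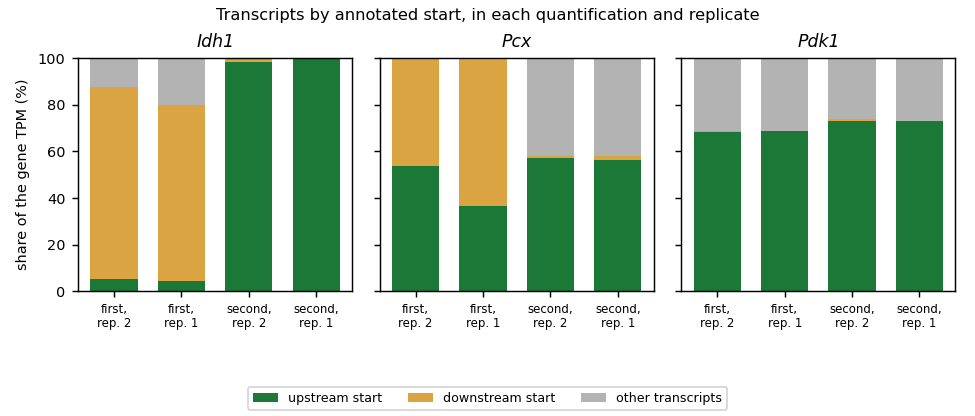
Share of the TPM of Idh1, Pcx and Pdk1 (percent) held by transcripts that begin within 500 bases of the upstream start, of the downstream start, or elsewhere, for each quantification with replicate 2 left of replicate 1. Idh1 is mostly downstream in the first quantification and upstream in the second, whereas Pdk1 is mostly upstream in both.

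The plot of transcripts by start sets Idh1 and Pcx beside Pdk1, another listed gene with distant RefSeq starts. Pdk1 transcripts at the upstream start held 68.2% in replicate 2 and 68.8% in replicate 1 in the first quantification, and 72.9% and 73.2% in the second. For Pdk1 the quantifications were therefore close.

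Gene levels do not say how much of the RNA was annotated as coding, and the genes differed widely in this. The median gene had 96.7% of its TPM on protein-coding transcripts in the first quantification and 92.03% in the second, and 18 of the 37 had over 90% in both. Cs (99.9% in both), Got2 (99.6% in both) and Ogdh (99.4% and 99.8%) were almost wholly coding. Me3 stood at the other end, with 2.51% ± 0.172 coding in the first quantification and 5.66% ± 0.374 in the second (SD, n = 2). Most Me3 TPM lay on Me3-201, a processed transcript (54.2% and 52.0% in the first and the second quantification), and Me3-203, a retained intron (41.9% and 40.4%). Coding Me3 transcripts amounted to 1.31 TPM in replicate 2 and 1.21 TPM in replicate 1, below the coding Me2 transcripts at 3.02 and 2.76 TPM. In the second quantification coding Me3 transcripts had 3.37 TPM in replicate 2 and 3.12 TPM in replicate 1, against 3.29 and 2.98 TPM for Me2, so the order on coding transcripts depended on the quantification.

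Idh3a was another gene with a large noncoding part in both quantifications. Its coding transcript Idh3a-205 held 51.8% in replicate 2 and 55.0% in replicate 1, and Idh3a-204, annotated as a target of nonsense-mediated decay, held 45.8% and 43.5%. In the second quantification Idh3a-204 led with 65.0% in replicate 2 and 60.3% in replicate 1. Fh1 (82.6% and 27.9% coding), Glud1 (99.6% and 53.4%), Dlst (77.6% and 41.7%) and Dlat (66.4% and 33.7%) had a far lower coding share in the second quantification. Mdh2 (58.7% and 84.3%) and Pdk4 (75.7% and 96.6%) had a higher one. The transcript with the most TPM was the same in both quantifications for 30 of the 37 genes and held over 50% in both for 27.

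**Figure D4:**
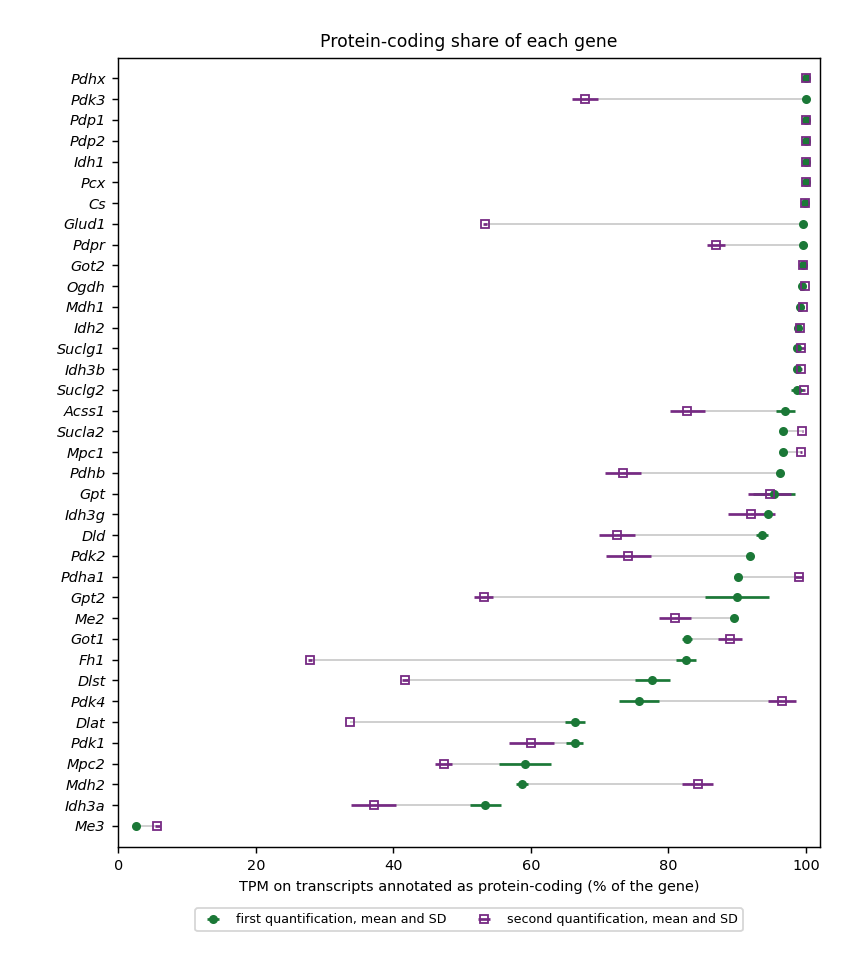
Percent of each gene's TPM on transcripts annotated as protein-coding, mean of 2 hearts with SD as error bars, in the first quantification (circles) and the second (squares), joined by a line. Me3 lies lowest in both at 2.51% and 5.66%, and Fh1 has one of the longest lines, from 82.6% to 27.9%.

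The plot of coding shares shows SD bars that were short beside the gaps between the quantifications for genes such as Fh1, Glud1 and Dlat, so the choice of quantification weighed more than the choice of heart there. Counts per gene were close nonetheless, with a ratio of the second over the first of 0.955 to 1.18 and a median of 1.049. TPM was higher in the second (median ratio 1.21, against 1.16 for all detected nuclear protein-coding genes). Across the 37 genes, the order of levels in the quantifications had a Spearman rho of 0.959, a description over genes that share the same reads.

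The library test was then read over the whole list. None of the 37 genes reached an adjusted p under 0.05 together with a 2-fold ratio by the exact binomial test, against 210 of 13745 tested genes (1.53%). An unadjusted p under 0.05 was reached by 25 of the 37, against 31.7% of all tested genes and 43.4% of those with 1000 counts or more. Pdk4 alone exceeded 1.5-fold. At any fold, 7 of the 37 were higher in replicate 2, against 10% of all tested genes, and 16 were lower, against 11.8%. Deeply counted genes pass more often. Among 6557 genes with 1000 counts or more over both libraries, as 35 of the 37 had, 14.6% were higher and 18.6% lower. The edgeR exact test with a common dispersion passed 0 of the 37 after adjustment, against 1.13% of all tested genes, and 3 unadjusted (Pdk4, Idh1 and Pdp1), against 4.24%. Its dispersion came from the same 2 libraries, so low shares of passing genes follow in part by construction.

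**Figure D5:**
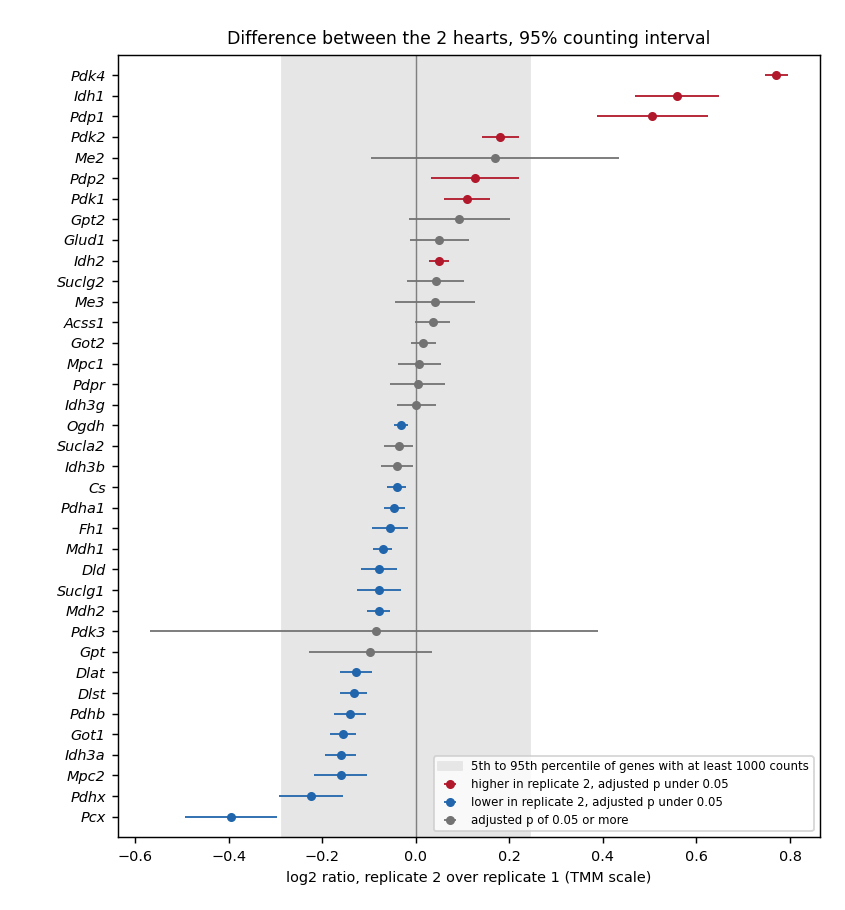
Log2 ratio of replicate 2 over replicate 1 on the TMM scale for the 37 genes, with exact 95% counting intervals; red genes were higher and blue genes lower in replicate 2 at an adjusted p under 0.05, and the grey band is the 5th to 95th percentile of genes with 1000 counts or more (-0.29 to 0.24). Pdk4, Idh1 and Pdp1 lie above the band and Pcx below it; the blue genes other than Pcx turn positive on the spike-in scale.

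The plot of ratios shows a narrow spread around 0 with 4 genes outside the central band of deeply counted genes. The median ratio of the 37 was -0.04, against 0.00 for all tested genes. Of the 37, 33 (89.2%) lay within 1.2-fold, against 77.6% of all tested genes and 90.01% of those with at least 1000 counts. The largest departures were Pdk4 (0.77), Idh1 (0.56) and Pdp1 (0.51) upward and Pcx (-0.40) downward. TPM was higher in replicate 1 for 28 of the 37, whereas on the TMM scale 20 ratios were below 0. On the spike-in scale the median of all tested genes moved to 0.24 and that of the 37 to 0.21. Since that scale shifts every gene alike, the difference between these medians is the same on both by construction.

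Another 30 genes of the same pathway were listed for comparison. Of these 28 were detected, 2 were called at 2-fold, both lower in replicate 2, against 1.53% of all tested genes, and at any fold 2 were higher and 11 lower, against 10% and 11.8%. The succinate dehydrogenase genes, which oxidise succinate in the cycle, ranged from Sdhd at 249.8 TPM in replicate 2 and 271 TPM in replicate 1 to Sdha at 548 TPM in replicate 2 and 607 TPM in replicate 1. Ldhb, the heart-type lactate dehydrogenase that makes pyruvate from lactate, was the highest of the 30, with 986 TPM in replicate 2 and 1091 TPM in replicate 1. Pdha2, the testis form of Pdha1, was at 0 in both.

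The 2 called genes were enzymes that draw on the cycle in fat and liver. Pck1, the cytosolic phosphoenolpyruvate carboxykinase, had 9.44 TPM in replicate 2 and 38.3 TPM in replicate 1 (log2 ratio -1.97, -2.09 to -1.85). Acly, the ATP citrate lyase that returns citrate carbon to cytosolic acetyl-CoA, had 13.7 TPM in replicate 2 and 28.8 TPM in replicate 1 (-1.22, -1.31 to -1.13). Adipocyte marker sums were lower in replicate 2 as well, with Ucp1 at 7.95 TPM in replicate 2 and 52.6 TPM in replicate 1, and their part in these results was not tested. Among 7 transcription regulators of oxidative genes, Ppara, a fatty acid-sensing receptor known to activate Pdk4, had 14.2 TPM in replicate 2 and 23.1 TPM in replicate 1 (-0.67), and the coactivator Ppargc1a had 34.7 TPM in replicate 2 and 49.7 TPM in replicate 1 (-0.49). Esrra (-0.15) was lower in replicate 2 too, Ppargc1b (0.24) and Nrf1 (0.31) were higher, and Ppard (-0.04) and Gabpa (0.05) did not pass.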

How the data were processed

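Total RNA of 2 hearts (1 group) was sequenced and quantified by the authors. Per the deposited description files, each library was quantified against mm10 with gene annotation M21. Which programs were used is not given in the sources used here. One quantification (the first), whose columns are those RSEM writes, gives the authors' expected counts (not normalized), the authors' TPM (scaled for effective length), and the authors' IsoPct in percent of a gene's abundance, per the file headers. The posterior SD of each count, a score per the file headers, was at most 0.419% of the count in the 37 genes. The second, whose columns are those kallisto writes, gives deposited estimated counts and TPM per transcript, summed here per gene. Both used a C57BL/6J reference, so reads of the CAST allele carry mismatches, whose effect was not tested. Whether counting used strand is not stated, so reads of overlapping opposite-strand genes may be shared.

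Of 38332179 (replicate 2) and 39053339 (replicate 1) expected counts, 163501 and 207724 were spike-in. Counts were rounded for the exact two-sided binomial test per gene, which used TMM effective library sizes (edgeR 4.0.16, R 4.3.3), with Benjamini-Hochberg adjustment over genes with 50 counts or more in sum, and a call needed adjusted p under 0.05 and 2-fold. Ratios add 0.5 to each count. Intervals are exact (Clopper-Pearson), 95%, and cover counting error only. The test compares reads of 2 libraries, not conditions. Alternatives were DESeq2 1.42.0 size factors, total counts, spike-in totals, count filters, the second quantification and the edgeR exact test with a common dispersion (biological coefficient of variation 0.113). The dispersion was estimated from the 2 libraries treated as 1 group. Scripts used Python 3.11.15 with scipy 1.17.1. The binomial test was checked on simulated counts with known fold changes and counting (Poisson) error only. Such counts hold no spread between libraries, so the check does not cover its error rate on these data. All 37 genes may be named, with the highest, lowest and called of the other pathway genes; the succinate dehydrogenase genes and the transcription regulators were chosen after their values were seen. The genes and lists were chosen with earlier results of these data known. Promoter sequences are RefSeq's (GRCm38.p6), matched by symbol for 33 of 37 genes. A planned comparison of protein sequences was not run, and 1 of the other pathway genes is not reported here by name.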

Additional observations from a re-analysis of the deposited data

How the results depend on the processing

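All 37 genes were detected under every alternative except a 2 TPM minimum, which left 36, and also without either replicate (37 to 37). The median level was 284.9 TPM in the second quantification, 524 TPM rescaled over nuclear protein-coding genes and 148 TPM on protein-coding transcripts alone (a setting chosen after seeing the data), and 194.6 to 217 TPM without either replicate. The share of nuclear protein-coding TPM was 2.32% without haemoglobin genes (chosen after seeing the data) and 2.12% to 2.25% without either replicate. The 2-fold call count of 0 became 1 on spike-in totals (Pdk4, log2 ratio 1.01), 1 at a 1.5-fold minimum and 23 at any fold. The 23 genes passing at any fold became 35 on spike-in totals (34 higher and 1 lower, in place of 7 and 16). With the edgeR exact test they became 0. Total counts gave 27 (4 higher and 23 lower), and the second quantification gave 25 (6 higher and 19 lower). The median ratio turned to 0.21 on spike-in totals. There 15 ratios of genes that had passed on the TMM scale changed sign: Mpc2 0.082, Pdha1 0.20, Pdhb 0.10, Dlat 0.11, Pdhx 0.018, Dld 0.16, Cs 0.20, Idh3a 0.082, Ogdh 0.21, Dlst 0.11, Suclg1 0.16, Fh1 0.19, Mdh2 0.16, Mdh1 0.17 and Got1 0.087. Negative ratios that had not passed also turned positive there (Pdk3 0.16, Idh3b 0.20, Sucla2 0.21, Gpt 0.15), which left Pcx the one negative ratio (-0.15). On total counts Idh2, which had passed, turned to -0.027. Mpc1, Pdpr, Idh3g, Suclg2, Got2, Glud1, Me3 and Acss1, which had not, turned negative too (-0.08 to -0.03). These scales move all genes together by construction, and the cause of the spike-in difference was not tested. Family leaders numbered 9 of 14 by expected counts and 14 to 14 without either replicate; leading transcripts were the same for 35 to 36 of 37 genes without either replicate. No paired analysis was possible because there is 1 group.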
